A study of Mus musculus with 2 samples.

Results

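Oxidative phosphorylation genes encode the 5 complexes of the mitochondrial inner membrane and cytochrome c. The members were taken by gene symbol: every row of the count matrix whose symbol begins with mt-, Nduf, Uqcr, Cox4i, Cox5, Cox6, Cox7, Cox8 or Atp5, together with Sdha, Sdhb, Sdhc, Sdhd, Cyc1 and Cycs, and with at least 50 unique molecular identifiers (UMIs) in both libraries together. Of 27998 genes in the matrix, 107 had such a symbol and 101 were members, 13 of them encoded by the mitochondrial genome and 88 by nuclear chromosomes. Membership was selected on the measured sum of UMIs over both libraries and not on the difference between them. No member was close to the minimum. The lowest members were Atp5s with 419 UMIs and Cox6b2 with 587, and the 6 genes left out had 18 (Cox6a2), 1 (Cox4i2 and Cox8b) or 0 (Cox7b2, Ndufa4l2 and Cox8c). A count of 0 allows up to 3 UMIs, which is 0.0787 counts per 1000000 UMIs (CPM) of the WT library and 0.126 CPM of the Tipe0-/- library.

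The study profiled ileal epithelium by droplet single-cell RNA sequencing with 3′ chemistry, to ask how loss of TIPE0 alters the epithelial cell populations. The WT group was wild type C57BL/6 and the Tipe0-/- group lacked Tnfaip8, the gene of TIPE0 (genotype TNFAIP8-/-), on the same named background, both aged 8 weeks and with no injury or drug named. The labels call the tissue enterocytes of the ileum and the starting material enteroids, whereas the libraries also held secretory, stem-like and lymphocyte-like cells. The methods state that WT mice were bought from The Jackson Laboratory or bred in house, and that the knockout line had been made earlier. The labels do not say whether the groups were littermates. Cells of 3 mice were pooled for each genotype, which gives 1 library per genotype. Therefore no test between the genotypes was possible, no p-value is given, and a difference between the genotypes, between the pools of mice and between the libraries cannot be told apart.

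Each respiratory complex has a defined task. Complex I takes electrons from NADH and complex II from succinate, both pass them through ubiquinone to complex III, cytochrome c carries them to complex IV, and complex V, the ATP synthase, uses the resulting proton gradient to make ATP. The mitochondrial genome is transcribed inside the organelle from both strands as long precursors that are cut into separate mRNAs, whereas the nuclear subunits are transcribed one by one, translated in the cytosol and imported. Complexes I, III, IV and V therefore need products of both genomes, and complex II is built from nuclear genes alone. In the intestinal crypt, mitochondrial activity is known to differ between stem cells, Paneth cells and the absorptive cells of the villus.

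Several mitochondrial genes overlap, so that a read can belong to either neighbour, and their transcripts are shown because the largest difference lies in such a pair. mt-Atp8 (chrM:7766-7969, plus strand, GRCm38) shares 43 bases with mt-Atp6 (chrM:7927-8607), and mt-Nd4l (chrM:9877-10173, plus strand) shares 7 bases with mt-Nd4 (chrM:10167-11544). Each pair is known to be carried by a shared mRNA. The last 60 bases of mt-Atp8 (chrM:7910-7969) and of mt-Nd4l (chrM:10114-10173) are given from the GENCODE transcripts, with the bases shared with the next gene in capitals.
mt-Atp8: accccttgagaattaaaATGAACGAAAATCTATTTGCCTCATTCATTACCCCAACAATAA
mt-Nd4l: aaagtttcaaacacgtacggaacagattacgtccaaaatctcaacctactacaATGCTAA
In both cases the capitals begin with ATG, the start codon of the next gene. mt-Atp6 and mt-Co3 share 1 base, and mt-Nd5 and mt-Nd6 share 14 bases on opposite strands. How the counting assigned reads within these overlaps is not given in the sources used here, so the counts of mt-Atp8, mt-Atp6, mt-Nd4l and mt-Nd4 are uncertain to that extent.

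For 72 of the 88 nuclear members the RefSeq promoter table (GRCm38.p6) held a promoter, from 250 bases before to 50 bases after the start. The promoters of Cycs and Ndufa4 are shown because these genes had the lowest and the highest ratio of Tipe0-/- over WT among the nuclear members with 100 CPM or more in either library. The 150 bases before the start are given 5′ to 3′ on the gene's own strand, for Cycs at chr6:50566570-50566719 (minus strand) and for Ndufa4 at chr6:11907451-11907600 (minus strand). Capitals mark a match to the motif of NRF1, a factor known to activate many respiratory genes.
Cycs: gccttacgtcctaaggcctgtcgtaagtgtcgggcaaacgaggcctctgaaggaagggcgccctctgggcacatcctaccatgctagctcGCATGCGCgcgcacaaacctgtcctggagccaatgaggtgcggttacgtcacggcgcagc
Ndufa4: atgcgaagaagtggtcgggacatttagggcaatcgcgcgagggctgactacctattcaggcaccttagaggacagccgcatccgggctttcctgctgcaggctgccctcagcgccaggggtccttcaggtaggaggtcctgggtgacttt
The NRF1 motif was searched as GCGCATGC on both strands over the 300 bases, and 18.1% of the 72 genes held it, against 3.05% of 27025 genes with a promoter in the table. The motif of YY1 (AAGATGGC) was held by 12.5% of the members and 3.19% of all genes, that of ERRA (AAGGTCA) by 11.1% and 5.38%, that of GABPA (CCGGAAGT) by 6.94% and 4.31%, and that of CREB (TGACGTCA) by 6.94% and 2.03%. The 13 members with the NRF1 motif had a median log2 ratio of Tipe0-/- over WT of -0.02 and the members without it of -0.09. With and without the other motifs, the medians were -0.07 and -0.09 for YY1 and -0.01 and -0.10 for ERRA. They were -0.10 and -0.08 for GABPA, and -0.23 and -0.08 for CREB, held by 5 genes. Cycs held the CREB motif too, outside the stretch shown. Ndufa4 held none of the 5 motifs in the stretch shown, which says only that these letters are not in that window.

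There were 3402 WT cells with 38127808 UMIs and 2006 Tipe0-/- cells with 23897126 UMIs, at medians of 7760.0 and 7307.5 UMIs per cell, and 9 cell barcodes occurred in both libraries. Levels are given in CPM or as a percent of the UMIs of the library or class, values for WT come first, and intervals are exact 95% intervals that cover counting error only. A UMI marks a molecule at its 3′ end, so levels do not scale with the length of a gene. The targeted gene, Tnfaip8, had 372 WT UMIs (9.76 CPM) and 57 Tipe0-/- UMIs (2.39 CPM). Over all 11665 genes that reached 50 UMIs the median log2 ratio was 0.15, and ratios are read against this shift.

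Mitochondrial-encoded transcripts took a larger share of the Tipe0-/- library than of the WT library, and nuclear transcripts a slightly smaller one. The 13 mitochondrial genes made up 6.59% (6.58 to 6.60) of the WT UMIs and 8.56% (8.54 to 8.57) of the Tipe0-/- UMIs, a log2 ratio of 0.38. The 88 nuclear genes made up 5.24% (5.23 to 5.25) and 4.997% (4.988 to 5.006), a log2 ratio of -0.07 (-0.07 to -0.06). For each nuclear UMI there were 1.26 mitochondrial UMIs in WT cells and 1.71 in Tipe0-/- cells. This comparison needs no library total, and its log2 ratio was 0.44. All 13 mitochondrial genes lay above the median of all genes, against 10 of the 88 nuclear genes.

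Called with a CPM ratio of at least 1.2, 11 of the 13 mitochondrial genes were higher in the Tipe0-/- library, where 35.4% of all genes tested were called higher. Of the 88 nuclear members, 2 were higher and 10 were lower, where 11.0% of all genes were called lower. The share of nuclear members called higher (2.27%) was below that of all genes. The share called lower (11.4%) was close to that of all genes on this scale. When cells with over 10% mitochondrial UMIs were left out, it was 9.09%, below the 13.4% of all genes. Without the 5% of cells with the highest doublet scores, the share called lower was 17%, above the 11.2% of all genes. On the scales that follow it was also above that of all genes. It was 39.8% against 20% of all genes when scaled by the median ratio, 25% against 13.6% with totals that leave out mitochondrial and the 20 most abundant other genes, 28.4% against 13.7% with each cell weighted equally, 28.4% against 16.2% with cells thinned to 3000 UMIs, and 18.2% against 10.6% with the same makeup of cell classes. Among the 1158 other genes that reached 100 CPM in either library, the median log2 ratio was 0.03 and 21.0% were called higher, whereas the 76 nuclear members at that level had a median of -0.08 with 1 called higher. The share called lower at that level was 13.9% of the other genes and 11.8% of the nuclear members. At this level of expression the nuclear members thus had no excess of lower calls on the CPM scale.

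**Figure D1:**
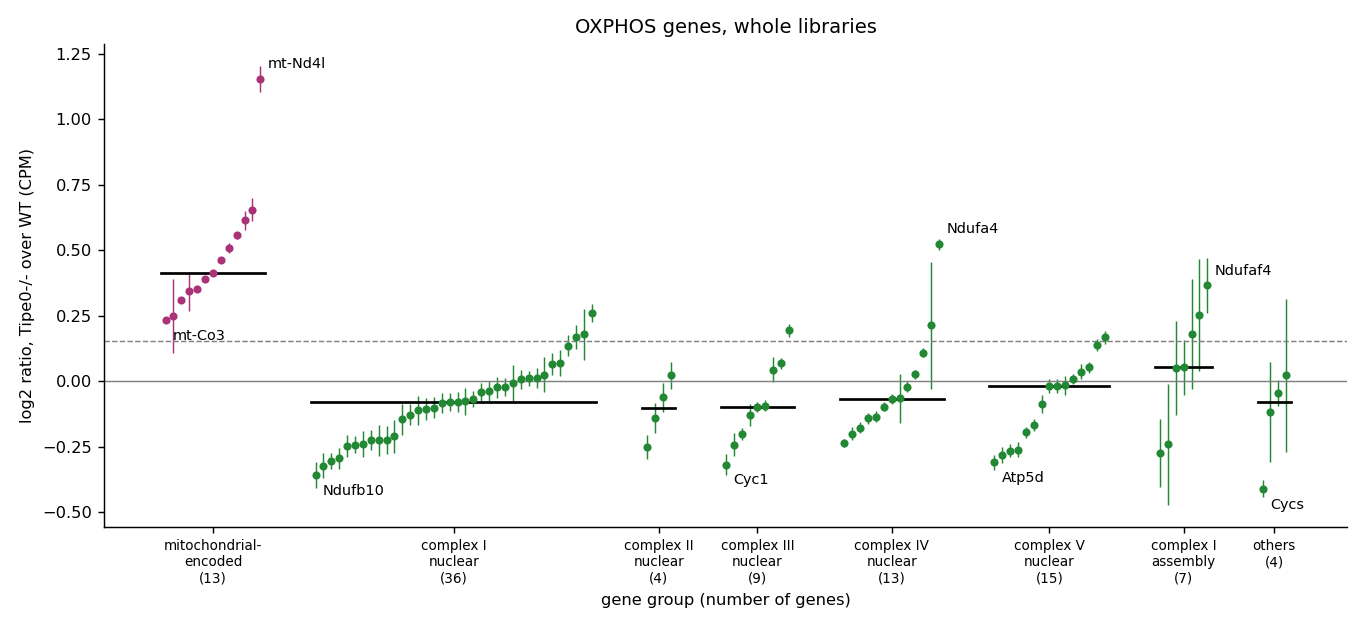
Log2 ratio of Tipe0-/- over WT (CPM, whole libraries) for each of the 101 genes, grouped by genome and complex and sorted within a group. Bars are 95% counting intervals, black lines are group medians, and the dashed line is the median of all genes at 0.15. The 13 mitochondrial genes all lie above the dashed line, whereas all nuclear subunit groups have medians below 0.

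The 7 mitochondrial subunits of complex I form the core of its membrane arm, which pumps protons, and they showed the widest range. mt-Nd4l was at 151 CPM (147 to 155) in WT and 337 CPM (329 to 344) in Tipe0-/- cells, a log2 ratio of 1.15 (1.105 to 1.203). mt-Nd4, which follows it on the same mRNA, was at 3011 and 4427 CPM, with a log2 ratio of 0.56 (0.54 to 0.57). The ratio of the mt-Nd4l counts was thus the largest of the 13 genes and exceeded that of its neighbour beyond counting error. Both genes share an mRNA and a UMI marks its 3′ end, so mt-Nd4l counts need not give the level of a separate mRNA. The source of these counts was not tested. mt-Nd5 was at 217 and 341 CPM (log2 ratio 0.65), mt-Nd3 at 359 and 549.6 CPM (0.61), and mt-Nd2 at 1109 and 1577 CPM (0.51). mt-Nd1 had 5661 and 7023 CPM, a log2 ratio of 0.31. mt-Nd6, the only protein gene on the minus strand, was lowest in level with 24.8 CPM (23.2 to 26.4) and 29.4 CPM (27.3 to 31.7), and its log2 ratio of 0.25 (0.11 to 0.39) did not reach the call.

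Cytochrome b, the mitochondrial subunit of complex III that binds ubiquinone, had 6398 CPM in WT and 8522 CPM in Tipe0-/- cells (mt-Cytb, log2 ratio 0.41). Complex IV, cytochrome c oxidase, has its catalytic core from the mitochondrial genome, and its genes held the most UMIs. mt-Co1 was at 16779 and 21989.8 CPM (0.39), mt-Co2 at 5369 and 6857 CPM (0.35), and mt-Co3 at 15058 and 17709 CPM (0.23). mt-Co3 had the smallest ratio of the 13 and was not called. The ATP synthase gene mt-Atp6, which encodes the subunit of the proton channel, was at 11678 and 16083 CPM (0.46), and mt-Atp8 at 87.0 and 110.4 CPM (0.34). The ratios from 0.23 to 1.15 spanned more than the interval of any single gene, so the 13 genes did not differ by a common factor between the libraries. As a share of mitochondrial UMIs, mt-Co3 was 22.8% in WT and 20.7% in Tipe0-/- cells, mt-Atp6 was 17.7% and 18.8%, and mt-Nd4l was 0.230% and 0.394%.

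**Figure D2:**
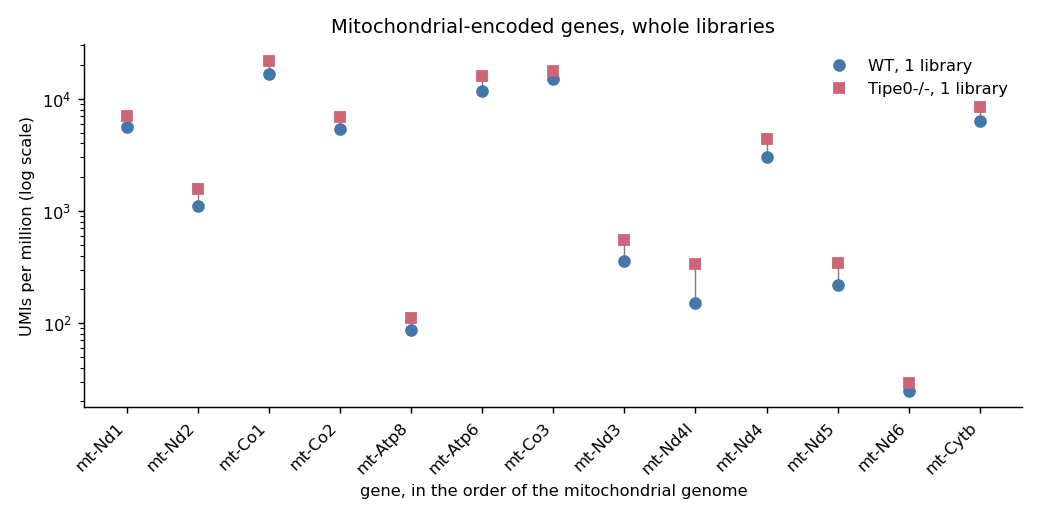
Level of the 13 mitochondrial-encoded genes in CPM (log axis), in the order of the mitochondrial genome, with 1 point for each library. The Tipe0-/- value lies above the WT value for every gene, and the gap is widest at mt-Nd4l with 151 and 337 CPM.

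The nuclear subunits of all 5 complexes had medians between -0.10 and -0.02 on the log2 scale. The 36 nuclear subunits of complex I had a median of -0.08 and a range of -0.36 to 0.26. Among them, 4 (11.1%) were called lower, close to the 11.0% of all genes, and 0 higher, against 35.4% of all genes. Ndufb10 was at 255 and 199 CPM, a log2 ratio of -0.36 (-0.41 to -0.31), and Ndufs5 at 282 and 226 CPM (-0.32). Ndufb9 (674 and 546 CPM, -0.30) and Ndufb8 (413 and 336 CPM, -0.29) completed the lower calls. All 4 are accessory subunits, which surround the catalytic core, as are 29 of the 36. Ndufa3 had the highest ratio, with 424 and 508 CPM (0.26), followed by Ndufs1 at 54.0 and 61.1 CPM (0.18), Ndufa1 at 233 and 262 CPM (0.17) and Ndufc2 at 340.3 and 374 CPM (0.14). The 7 nuclear core subunits, which carry the iron-sulphur clusters and the NADH site, had a median of -0.11, and Ndufs1 alone was above 0. Ndufa2 held the most UMIs of the nuclear complex I genes and was at 664 and 668 CPM.

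The 7 assembly factors of complex I had low levels, a median log2 ratio of 0.05 and no common direction. Ndufaf4 was at 42.9 and 55.2 CPM, a log2 ratio of 0.37 (0.26 to 0.47) that was called higher. Ndufaf3, which is known to act in the same early assembly step, was at 38.4 and 31.8 CPM and was called lower (-0.27). The other 5 lay between -0.24 and 0.25 and were not called. The shares called, 14.3% higher and 14.3% lower, stand against 35.4% and 11.0% of all genes.

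Succinate dehydrogenase, complex II, also belongs to the citric acid cycle. Sdha had 212 and 215 CPM, Sdhb 285 and 239 CPM, Sdhc 181 and 173 CPM and Sdhd 173 and 157 CPM. None of the 4 was called, against 35.4% of all genes called higher and 11.0% called lower, and their median log2 ratio was -0.10. Of the 9 nuclear genes of complex III, 1 (11.1%) was called lower, close to the share of all genes, and 0 higher. This was Cyc1, which encodes cytochrome c1, with 387 CPM (380 to 393) in WT and 310.0 CPM (303 to 317) in Tipe0-/- cells. Its log2 ratio was -0.32 (-0.36 to -0.28). Uqcrb, a small subunit near the ubiquinone site, had 849 and 971 CPM (0.19), and Uqcr10, with the most UMIs of the complex, had 1448 and 1352 CPM (-0.10).

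Cytochrome c, the mobile carrier between complexes III and IV that also triggers apoptosis when released, had the lowest ratio of all 101 genes. Cycs was at 632 CPM (624 to 640) in WT and 476 CPM (467 to 484) in Tipe0-/- cells, a log2 ratio of -0.41 (-0.44 to -0.38). Thus, the adjacent steps Cyc1 and Cycs were both lower in the Tipe0-/- library. The mouse genome is known to hold processed pseudogenes of Cycs, and reads that match these equally well cannot be assigned with certainty.

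Complex IV held the nuclear gene with the highest ratio of the 88. Ndufa4, first described with complex I and now counted with complex IV, was at 970.2 CPM (960.3 to 980.1) in WT and 1393 CPM (1378 to 1408) in Tipe0-/- cells. Its log2 ratio was 0.52 (0.50 to 0.54). The 13 nuclear genes of complex IV had a median of -0.07 and ranged from -0.24 to 0.52. Only Ndufa4 (7.69%) was called higher, against 35.4% of all genes, and 0 were called lower, against 11.0% of all genes. Cox4i1, the largest nuclear subunit, had the lowest ratio with 2228 and 1892 CPM (-0.24), Cox6c, with the most UMIs, had 2118 and 2156 CPM (0.03), and Cox7c had 1821 and 1963 CPM (0.11).

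Subunits of complex IV that exist as tissue isoforms were nearly all of the ubiquitous kind. Cox4i1 had 84947 UMIs in the WT library against 1 of Cox4i2, the lung isoform. Cox6a1 had 49419 against 15 of the muscle isoform Cox6a2, and Cox8a had 82609 against 0 of Cox8b. The exceptions were Cox7a1, the heart and muscle isoform, with 64.0 and 61.1 CPM, and Cox6b2, the testis isoform, with 8.92 and 10.3 CPM. Their ubiquitous partners Cox7a2 and Cox6b1 had 1436 and 1270.0 CPM and 1351 and 1288 CPM. Cox7a1 was not evenly spread. It had 7.35 CPM in WT stem-like cells (19 UMIs) and 209 CPM in WT enterocyte-like cells (1439 UMIs), and 9.68 and 222 CPM in these classes of Tipe0-/- cells. The class with the most Cox7a1 was thus the same in both libraries, and its level there differed by a log2 ratio of 0.09 (-0.04 to 0.22). In other classes its ratio lay on both sides of 0. It was 0.62 (0.29 to 0.95) in cycling-like cells, with 22.0 and 33.8 CPM, and 0.90 (0.07 to 1.73) in Paneth-like cells, with 26 and 27 UMIs, the highest of the nuclear members in both classes. In tuft-like cells it was -0.71 (-1.31 to -0.17), with 116 and 35 UMIs. Cox7a2l, a related gene that was not counted with the subunits of complex IV, was at 381 and 339 CPM in stem-like, 321 and 277 CPM in tuft-like and 175 and 151 CPM in enterocyte-like cells.

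The 15 nuclear genes of complex V had a median log2 ratio of -0.02. Of these, 3 (20%) were called lower, against 11.0% of all genes, and 0 higher, against 35.4% of all genes. Atp5d, the delta subunit of the rotor, had 719 and 579 CPM (-0.31), Atp5o, a subunit of the stalk that holds the catalytic head, 730.1 and 600.4 CPM (-0.28), and Atp5b, the catalytic beta subunit, 1070.5 and 891 CPM (-0.27). Atp5k (763 and 857 CPM, 0.17) and Atp5g3 (1035 and 1139 CPM, 0.14) had the highest ratios, and Atp5l, with the most UMIs of the complex, had 1638 and 1648 CPM. The 3 genes Atp5g1, Atp5g2 and Atp5g3 encode the same mature c subunit of the rotor ring. Their log2 ratios were -0.20 (-0.22 to -0.18), 0.04 (0.01 to 0.06) and 0.14 (0.12 to 0.16), so that the genes for 1 protein lay on both sides of 0.

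Cells were clustered without the members and named from marker genes, and each class is called "like" a cell type. In all, 12 of the 13 clusters formed 7 named classes. The mitochondrial share differed widely between them in both libraries. Paneth-like cells, the defensin-secreting cells of the crypt base, had the lowest, 1.99% in WT and 2.52% in Tipe0-/- cells. Enterocyte-like cells had the highest of the named classes, 9.57% and 12.3%. Goblet-like cells had 5.58% and 7.15%, tuft-like cells 6.39% and 7.59%, stem-like cells 7.71% and 9.49%, cycling-like cells 7.91% and 11.8%, and lymphocyte-like cells 9.12% and 11.2%. Therefore the order from low to high was Paneth-, goblet-, tuft-, stem-, cycling-like in WT and the same in Tipe0-/- cells, whereas cycling-like cells had passed lymphocyte-like cells in the Tipe0-/- library.

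The mitochondrial share was higher in the Tipe0-/- library in 7 of 7 named classes. The log2 ratio was 0.57 in cycling-like, 0.37 in enterocyte-like, 0.36 in goblet-like, 0.34 in Paneth-like, 0.30 in stem-like, 0.29 in lymphocyte-like and 0.25 in tuft-like cells. The widest interval, that of lymphocyte-like cells (0.26 to 0.33), rests on 16 Tipe0-/- cells. Among the 13 clusters, the ratio was above 0 in 13 and ran from 0.24 to 0.69. The highest was in a cluster of cycling-like cells led by the replication genes Ccne2, Cdc6 and Dtl (341 WT and 256 Tipe0-/- cells), with 9.94% and 16.01%, and the cycling-like cluster led by mitotic genes had 6.82% and 9.33%. The unnamed cluster, led by Lrg1 and Gsdmc3 (294 and 138 cells), had 9.31% and 13.3%. Scaled by the median ratio of each class, the mitochondrial share was higher in 6 named classes, all but the Paneth-like one. Without cells over 10% mitochondrial UMIs it was also higher in 6. The lymphocyte-like class, where 9 of the 16 Tipe0-/- cells were over 10%, then had too few cells for a value.

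Nuclear genes gave another pattern. Their share was lower in Tipe0-/- enterocyte-like (5.70% and 4.74%), cycling-like (6.64% and 6.11%), stem-like (4.92% and 4.69%), tuft-like (6.34% and 6.05%) and goblet-like cells (5.90% and 5.68%). It was equal within counting error in lymphocyte-like cells (3.78% and 3.78%). It was higher in Paneth-like cells, at 1.44% and 1.99%, a log2 ratio of 0.46 (0.45 to 0.47). In Paneth-like cells 82 of 83 nuclear genes with enough UMIs lay above 0, against 13 of 88 in enterocyte-like cells. Above the median of all genes of the class lay 37 of the 83 in Paneth-like and 8 of the 88 in enterocyte-like cells. Mitochondrial UMIs per nuclear UMI, from the summed UMIs, were higher in the Tipe0-/- library in 6 of the 7 classes, with 1.68 and 2.61 in enterocyte-like cells for instance. They were lower in Paneth-like cells, with 1.38 and 1.27. The single Paneth-like cells did not show this reversal. Their median shares were 2.12% mitochondrial and 1.37% nuclear in WT, and 2.60% and 1.66% in the Tipe0-/- library. Nuclear UMIs outnumbered mitochondrial UMIs in 22.3% of WT and 21.6% of Tipe0-/- Paneth-like cells.

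The Paneth-like ratios stood beside a shift of the whole class. Its median log2 ratio over all genes with at least 50 UMIs was 0.48, against -0.06 to 0.15 in the other named classes. Relative to that median, Paneth-like cells had a mitochondrial log2 ratio of -0.14 and a nuclear log2 ratio of -0.02, so both directions turned with the scaling. The 20 most abundant non-mitochondrial genes took 68.5% of the UMIs of Paneth-like cells in WT and 58.2% in Tipe0-/- cells, and the 10 Paneth markers alone took 19.8% and 15.5%. In the other named classes these markers took between 0.0723% and 0.201% of WT UMIs and between 0.0401% and 0.119% of Tipe0-/- UMIs. The part of these genes in the Paneth-like ratios was not tested. The ratio of mitochondrial to nuclear UMIs in this class is free of that total.

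**Figure D3:**
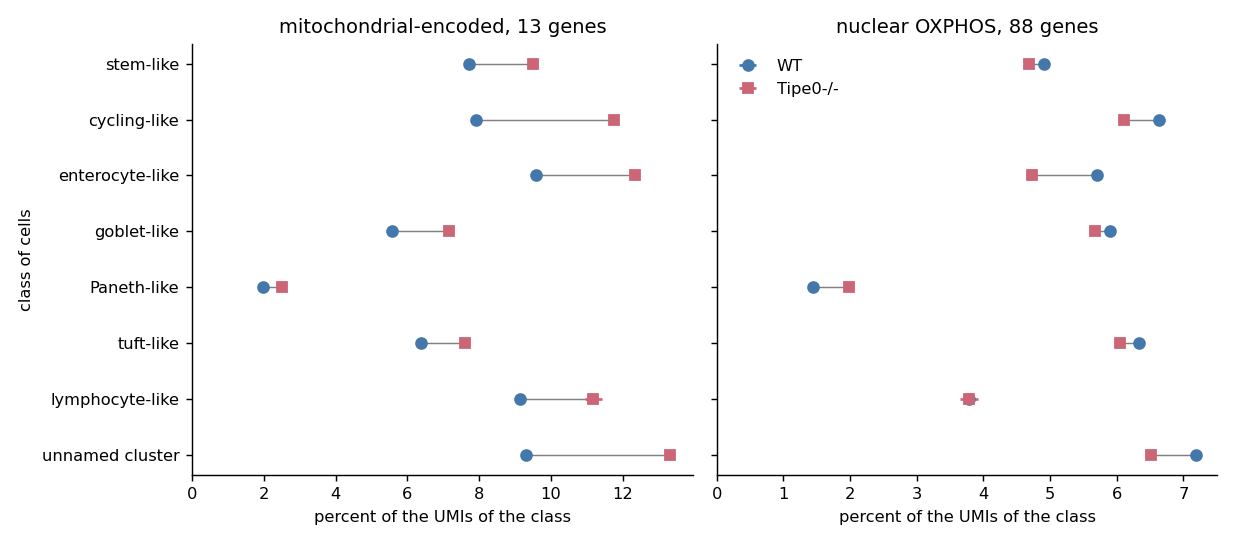
Share of the UMIs of each class taken by the 13 mitochondrial-encoded genes (left) and by the 88 nuclear genes (right), in percent, for WT (circles) and Tipe0-/- (squares), with 95% counting intervals that are mostly smaller than the symbols. On the left every square lies to the right of its circle, and on the right only that of Paneth-like cells does so clearly, at 1.99% against 1.44%.

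Different clusters held the enterocyte-like class in the libraries. A cluster led by U90926, Sprr2b and Saa1 held 388 WT and 59 Tipe0-/- cells, a cluster led by Apoa4, Ada and Mme held 61 and 167, and a cluster led by Arg2 and Fabp6 held 349 and 176. Within them the mitochondrial log2 ratio was 0.24, 0.24 and 0.31, below the 0.37 of the class. The nuclear log2 ratio was -0.17 in the Sprr2b cluster and -0.18 in the Arg2 cluster, and 0.21 (0.18 to 0.24) in the Apoa4 cluster, where 2.83% and 3.27% of UMIs were nuclear members. The lower nuclear share of the enterocyte-like class was therefore found in 2 of its 3 clusters, and each of these ratios was nearer to 0 than the -0.27 of the class. Of the 13 clusters, 10 had a nuclear interval below 0 and 2 above 0.

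The genes of the extremes were followed through the classes. Cycs differed most between classes of all 87 members with at least 100 CPM in both libraries, over the stem-, cycling-, enterocyte-, goblet- and tuft-like classes. It had 298 CPM in stem-like and 1280.0 CPM in enterocyte-like WT cells, 4.30-fold apart, and 279.5 and 871 CPM in Tipe0-/- cells, 3.12-fold apart. Its log2 ratio was -0.56 (-0.62 to -0.49) in enterocyte-like, -0.45 in tuft-like, -0.24 in cycling-like and -0.24 in goblet-like cells, and -0.09 (-0.24 to 0.06) in stem-like cells. Within the enterocyte-like class it was -0.57 in the Sprr2b and -0.54 in the Arg2 cluster. It was -0.09 (-0.26 to 0.09) in the Apoa4 cluster, with 1038 and 976 CPM. The goblet-like clusters had -0.12, -0.57 and -0.50. Thus the lower level of Cycs in the Tipe0-/- library was not detectable in stem-like cells, which had the lowest level of these 5 classes, nor in the Apoa4 cluster. Nor was it detectable in lymphocyte-like cells, at -0.41 (-1.11 to 0.19). In Paneth-like cells it had 83.5 and 125 CPM (0.58).

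Over these 5 classes, Ndufa4 was lowest where Cycs was highest. WT enterocyte-like cells had the least of the 5, 384 CPM, and cycling-like cells the most, 1539.7 CPM (4.01-fold). In the Tipe0-/- library the values were 811 and 1888 CPM (2.33-fold). The log2 ratio was 1.08 in enterocyte-like, 0.79 in tuft-like, 0.58 in Paneth-like, 0.46 in goblet-like, 0.29 in cycling-like and 0.09 (0.02 to 0.16) in stem-like cells, and in lymphocyte-like cells its interval of -0.25 to 0.47 included 0. It was 1.59 (1.39 to 1.79), 0.94 and 0.82 in the Sprr2b, Arg2 and Apoa4 clusters of enterocyte-like cells. The difference was therefore largest in the class with the least Ndufa4 among these 5 in WT, and it remained within each enterocyte-like cluster. The WT level is also the denominator of the ratio. Paneth-like cells, outside these 5, had less Ndufa4 still, 372 and 557 CPM, with the smaller ratio of 0.58.

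mt-Nd4l was higher in the Tipe0-/- library in all 7 named classes, from 0.74 (0.10 to 1.30) in lymphocyte-like and 0.74 (0.50 to 0.97) in tuft-like to 1.36 (1.26 to 1.45) in cycling-like cells. It had the highest ratio of the mitochondrial genes with enough UMIs in each of these classes, with the limit on its counts given above. mt-Co3, with the smallest ratio over the whole libraries, ran from 0.08 in tuft-like to 0.43 in cycling-like cells. Of the named classes, it was the lowest mitochondrial gene only in Paneth-like cells. The lowest was mt-Nd6 in stem-, cycling- and enterocyte-like cells, mt-Atp8 in goblet- and tuft-like cells and mt-Nd1 in lymphocyte-like cells. mt-Atp8 in tuft-like cells, with 201 and 88 UMIs, was the only mitochondrial gene below 0 in a named class (-0.18), and its interval of -0.56 to 0.18 included 0.

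**Figure D4:**
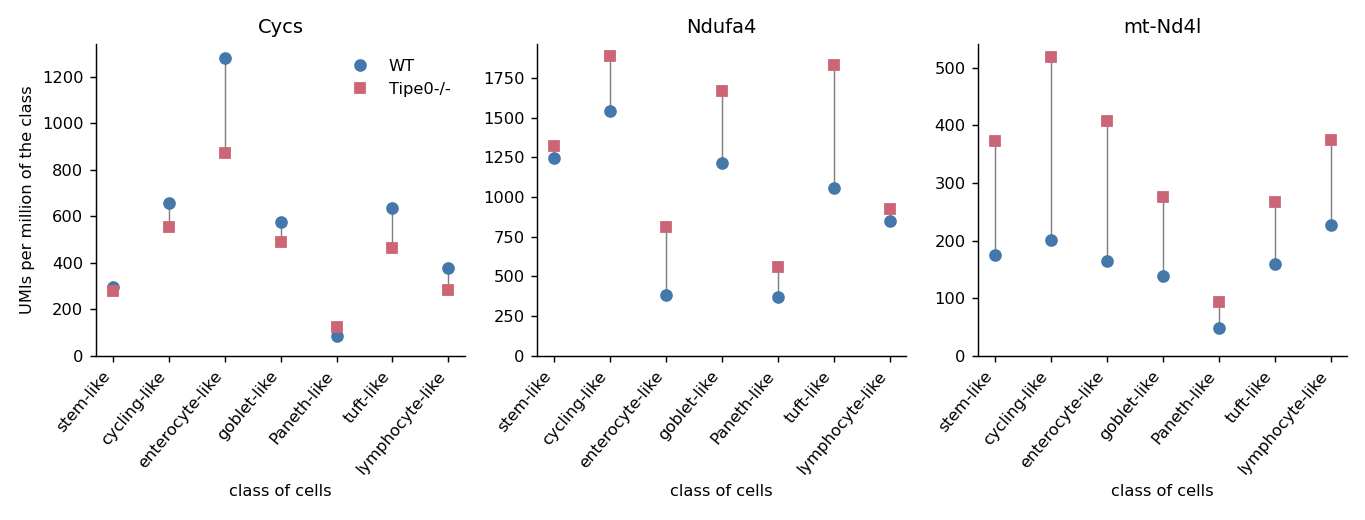
Level of Cycs, Ndufa4 and mt-Nd4l in each named class, in CPM of the class, for WT (circles) and Tipe0-/- (squares). Cycs is highest in enterocyte-like cells in both libraries (1280.0 and 871 CPM), Ndufa4 is highest in cycling-like cells (1539.7 and 1888 CPM), and mt-Nd4l is higher in the Tipe0-/- library in every class.

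Over those 5 classes, the 76 nuclear genes with at least 100 CPM varied between the lowest and the highest class by a median of 1.53-fold in WT and 1.52-fold in Tipe0-/- cells, and the 11 mitochondrial genes at that level by 1.56-fold and 1.79-fold. In WT 44 of the 76 nuclear genes were highest in cycling-like, 16 in tuft-like and 12 in enterocyte-like cells, and 51 were lowest in stem-like and 23 in enterocyte-like cells. In the Tipe0-/- library 39 were highest in cycling-like, 30 in tuft-like and 3 in enterocyte-like cells, and 39 were lowest in stem-like and 36 in enterocyte-like cells. The highest class was the same in both libraries for 46 of the 76. The mitochondrial genes differed from this, since all 11 in WT and 10 in Tipe0-/- cells were lowest in goblet-like cells. This holds for the goblet-like class as a whole, whose clusters differed in mitochondrial share as given above.

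The mitochondrial share moved with the depth of a cell, and the difference between the libraries was present at each depth. The median share per cell was 8.06% in WT and 11.0% in Tipe0-/- cells. In cells with fewer than 5000 UMIs it was 12.4% (876 cells) and 14.5% (631 cells), in cells from 5000 to below 10000 UMIs 9.72% and 12.5%, from 10000 to below 20000 UMIs 6.22% and 8.65%, and in deeper cells 3.58% and 5.30%. Thus it was lower in deeper cells of both libraries and higher in the Tipe0-/- library in each of the 4 ranges. The median nuclear share was instead highest in the deepest range, with 6.55% and 6.06%, against 4.61% and 4.52% in the shallowest, and was lower in Tipe0-/- cells in each range. Summed over cells the deepest range differed from this, with 4.87% and 5.27%. Depth also went with cell class, and the ranges were not split by class. Paneth-like cells had medians of 20981.5 and 26111 UMIs, with median mitochondrial shares of 2.12% and 2.60%. Enterocyte-like cells had medians of 6463.5 and 5697 UMIs, with shares of 10.6% and 13.4%. The part of cell class in the values by depth was not tested. These depth ranges and the split by cluster were chosen after seeing the data.

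Cells with a high mitochondrial share were more frequent in the Tipe0-/- library. Over 10% of UMIs were mitochondrial in 1210 WT cells (35.6%) and 1134 Tipe0-/- cells (56.5%), and over 20% in 141 and 205 cells. A high share is also used as a sign of damaged cells, and no cell was left out of the values above. When the cells over 10% were left out, the log2 ratio of the mitochondrial sum was 0.20, a limit that caps the share of every cell by its own construction. All 13 genes then lay above 0, but 11 of the 13 above the median of all genes (0.13), since mt-Co3 was at 0.042 and mt-Nd6 at 0.077. The 13 tested genes of the dissociation response, the immediate early and heat shock genes induced during tissue digestion, had a median log2 ratio of -0.01 with a range of -0.84 to 0.65. Of the nuclear RNAs, Malat1 had 3707 and 3636 CPM (-0.03) and Neat1 156.0 and 178 CPM (0.19), neither of which was called. The part of damaged cells in the mitochondrial difference was not tested.

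**Figure D5:**
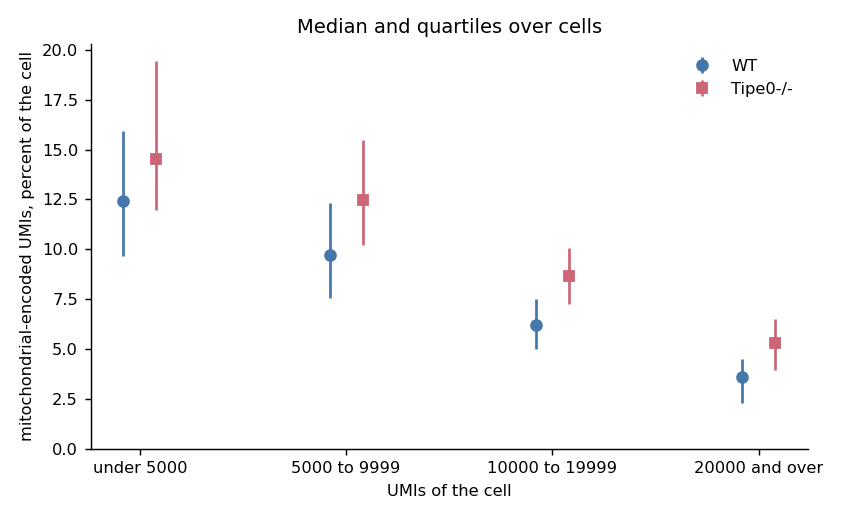
Mitochondrial-encoded UMIs as a percent of the UMIs of a cell, for cells grouped by their total UMIs, as the median (symbols) with the lower and upper quartile (bars) over the cells of each library. Medians run from 12.4% to 3.58% in WT and from 14.5% to 5.30% in Tipe0-/- cells, and the Tipe0-/- median is higher in each group.

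Genes around the respiratory chain were described from lists. The factors that process and stabilise mitochondrial RNA had a median log2 ratio of 0.29, with 10 of 17 (58.8%) called higher, against 35.4% of all genes, and 0 lower. Among them, Lrpprc, which protects mitochondrial mRNAs, had 42.6 and 59.8 CPM (0.49), its partner Slirp 222 and 262 CPM (0.24), and Trmt10c, a subunit of the mitochondrial RNase P, 13.6 and 22.8 CPM (0.75). Of 14 regulators of mitochondrial biogenesis, 5 were called higher and 0 lower, with a median of 0.19, and Tfam, which packages and transcribes mitochondrial DNA, had 55.4 and 64.3 CPM (0.21). Their share called higher, 35.7%, was close to that of all genes.

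Of the other lists, the mitochondrial ribosomal and citric acid cycle genes had medians below 0 as the nuclear members did, and the assembly factors lay nearer to the median of all genes. These counts stand against 35.4% of all genes called higher and 11.0% called lower. The 76 mitochondrial ribosomal protein genes tested had a median of -0.05, with 6 called higher (7.89%) and 4 lower (5.26%), and the 13 citric acid cycle genes a median of -0.09, with 2 higher (15.4%) and 0 lower. The 25 assembly factors of complexes III, IV and V outside the naming rule had a median of 0.10, with 6 higher (24%) and 1 lower (4%). Glycolysis, the cytosolic route to ATP, had the lowest median of the lists, -0.30, with 9 of 15 called lower (60%) and 0 higher. Of its genes, Ldha had 613 and 409 CPM (-0.58) and Gapdh 666 and 456 CPM (-0.54). Nnt, an inner membrane enzyme that makes NADPH and is partly deleted in the C57BL/6J substrain, had 12.2 CPM (11.1 to 13.3) and 41.1 CPM (38.6 to 43.8). The substrain of the mice is not given in the labels. The methods name The Jackson Laboratory or in-house breeding as the source of the WT mice. The part of the substrain in the values of the members was not tested.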

How the data were processed

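Ileal epithelial cells of 2 libraries, 1 WT and 1 Tipe0-/-, were analysed. The authors used Cell Ranger 2.1.0 with the mm10 reference and deposited raw UMI counts per gene and cell, without normalization. The annotation release and the treatment of reads in overlapping genes are not given in the sources used here. The methods name DNase I and Dispase for digestion and the labels collagenase and Dispase.

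Counts were summed per library and class. Log2 ratios (Tipe0-/- over WT) had 0.5 added to each sum. Their intervals came from the exact binomial and, for levels, the exact Poisson distribution (scipy 1.17.1, Python 3.11.15). The ratios and their intervals were tested on simulated counts with counting error only, without differences between cells, mice or libraries. With 1 library per genotype, a call is a CPM ratio of at least 1.2. Clusters were found in Seurat 5.3.0 (R 4.3.3) from 530 of 582 variable genes, leaving out members and 117 genes of the study's genotype comparison, with 14 principal components at resolution 0.8. Clusters were named by their highest mean marker score with at least 3 markers. Scrublet (Scanpy 1.11.5) called 15 WT and 3 Tipe0-/- cells, too few to rely on, and no cell was removed.

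Named are all mitochondrial members, the 8 nuclear members with the highest and the 8 with the lowest ratio at 100 CPM or more, the member with most UMIs of each complex, tissue isoforms, and genes next to the minimum. Genes of other lists, other called members, Cox7a2l and Ndufs1 were named after their values were seen. The members and lists were chosen with earlier results of these data known.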

Additional observations from a re-analysis of the deposited data

Results flagged for a closer look

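In Paneth-like cells the summed nuclear genes differed between Tipe0-/- and WT by a log2 ratio of 0.46, whereas the ratio was between -0.27 and 0.00 in the other 6 named classes and its interval lay below 0 in 5 of them. In the same cells the log2 ratio of mitochondrial over nuclear UMIs was -0.12, against 0.29 to 0.69 in the other named classes. Both were flagged because Paneth-like cells differed in direction from the other classes. For the nuclear sum this depended on the setting. Its level was higher in 3 classes with another choice of variable genes, and in 2 with shares averaged over cells. Scaled by the median of all genes of each class, which was 0.48 in Paneth-like cells, their nuclear ratio was -0.021 and no longer differed in direction from most other classes. The mitochondrial over nuclear ratio does not depend on that scaling, but it comes from summed UMIs. Counted by cell, nuclear UMIs outnumbered mitochondrial UMIs in 22.3% of WT and 21.6% of Tipe0-/- Paneth-like cells, without the reversal. The difference between the classes was not tested, since each genotype has 1 library.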

How the results depend on the processing

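The 13 mitochondrial genes lay above 0 under each of the 7 alternatives that rescaled or reselected the cells, and both sums kept their direction. The 13 genes also lay above the median of all genes in that setting, except without cells over 10% mitochondrial UMIs, where 11 of 13 did. Values are given in the order mitochondrial sum, nuclear sum, mitochondrial median and nuclear median, all as log2 ratios. With totals that leave out the mitochondrial and the 20 most abundant other genes they were 0.32, -0.12, 0.36 and -0.13, with 22 nuclear members lower (13.6% of all genes). Scaled by the median ratio of all genes they were 0.22, -0.22, 0.26 and -0.23, with 1 higher (18.4% of all genes) and 35 lower (20% of all genes). With each cell's share averaged over cells they were 0.40, -0.15, 0.47 and -0.16, with 25 lower (13.7% of all genes), and the mitochondrial sum over the nuclear sum was 0.55. Thinned to 3000 UMIs per cell they were 0.40, -0.15, 0.47 and -0.16, with 4 higher (32.5% of all genes) and 25 lower (16.2% of all genes), and the sum over sum was 0.55.

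With the same makeup of cell classes in both libraries the sums were 0.37 and -0.10, their ratio 0.46 and the mitochondrial median 0.39, with 16 nuclear members lower (10.6% of all genes). Without cells over 10% mitochondrial UMIs the sums were 0.20 and -0.040, their ratio 0.24 and the mitochondrial median 0.23. There 4 nuclear members were higher (32.7% of all genes) and 8 lower (13.4% of all genes). Without the 5% of cells with the highest doublet scores the sums were 0.40 and -0.092, their ratio 0.50 and the mitochondrial median 0.44. In that setting 3 nuclear members were higher (34.7% of all genes) and 15 lower (11.2% of all genes). The nuclear share was higher in 3 of 8 classes with another choice of variable genes and in 2 with shares averaged over cells. Scaled by the class median, the Paneth-like ratios were -0.14 (mitochondrial) and -0.021 (nuclear), and the class with a nuclear interval above 0 was then the lymphocyte-like one (0.064) in place of the Paneth-like one. The cause of these shifts was not tested. The minimum of 200 UMIs or 1 UMI moved no median or count by over 1.5 times.

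No paired analysis was possible because each genotype has 1 library, and for the same reason no replicate could be left out. Depth limits the low members, such as Cox6b2 and Atp5s, whose intervals include 0, and the lymphocyte-like class of 16 Tipe0-/- cells.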
